A study of Mus musculus with 10 samples.

Results

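Small RNA was compared between Dgcr8_KO and wild-type (WT) mouse E14 embryonic stem cells, with 2 libraries in each group, to see which microRNA (miRNA) hairpins persisted without Dgcr8 and which vanished. The comparison used 4 of the 10 libraries of the series, chosen by their labels, and all 1907 mature miRNA entries of the count table. All the libraries came from the E14 line, grown per the labels with 15% serum and 100 U/mL of the cytokine LIF on gelatine, with no feeder layer named. Each was made from 1 ug of total RNA. The Dgcr8_KO cells carry a knockout of Dgcr8, and the sources used here do not give the allele or the number of clones. The WT libraries are labelled P25 and P33. The labels do not say whether the replicates were grown separately, so the p-values cover only the spread between these libraries, which may be technical.

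Most miRNAs are cut in steps: the Microprocessor, made of the RNase III enzyme Drosha and the RNA-binding protein Dgcr8, releases a hairpin from a primary transcript in the nucleus, and Dicer then trims the hairpin to a duplex in the cytoplasm. A hairpin can enter at the Dicer step without the Microprocessor if splicing frees it as a whole intron (a mirtron), if transcription starts and stops at its ends (a capped hairpin), or if it is cut out of a small nucleolar RNA (snoRNA) or transfer RNA. The mature strand comes from the 5′ arm (5p) or the 3′ arm (3p) of the hairpin, and bases 2 to 8 of that strand, the seed, carry most of its target choice. Embryonic stem cells are known for the miR-290 to miR-295 cluster, of which miR-291a-3p, miR-294-3p and miR-295-3p share a seed with members of the miR-302 cluster.

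The sequences below, from RefSeq on GRCm38.p6, are shown because they carry the pattern of the data: mature strands with the same seed, in capitals, kept very different shares of their counts without Dgcr8. The first set has the seed of miR-25 and miR-92.
miR-92b-3p: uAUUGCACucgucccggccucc
miR-92a-3p: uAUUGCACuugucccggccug
miR-25-3p: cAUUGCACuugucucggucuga
miR-363-3p: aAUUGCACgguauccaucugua
The next has the seed of miR-15 and miR-16.
miR-497a-5p: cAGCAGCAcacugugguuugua
miR-16-5p: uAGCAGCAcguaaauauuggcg
miR-195a-5p: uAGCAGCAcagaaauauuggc
miR-15b-5p: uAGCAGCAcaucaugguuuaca
The seeds of miR-30, of miR-130 and miR-301, of miR-181 and of miR-290 5p follow.
miR-30a-5p: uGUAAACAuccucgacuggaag
miR-30c-5p: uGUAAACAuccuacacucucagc
miR-30e-5p: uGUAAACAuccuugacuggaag
miR-301a-3p: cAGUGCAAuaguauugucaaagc
miR-130a-3p: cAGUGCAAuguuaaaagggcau
miR-130b-3p: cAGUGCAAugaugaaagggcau
miR-181c-5p: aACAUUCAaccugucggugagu
miR-181d-5p: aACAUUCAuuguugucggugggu
miR-290a-5p: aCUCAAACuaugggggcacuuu
miR-292a-5p: aCUCAAACugggggcucuuuug
miR-293-5p: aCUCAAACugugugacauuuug

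Whole hairpins are given for 6 loci, with the mature arms in capitals. Mir293 and Mir294 are neighbours on 1 transcript whose 3p strands moved in opposite directions as shares, Mir15b and Mir16-2 lie in the same intron of Smc4, Mir291b had the widest gap between arms among 69 hairpins compared, and Mir877 fills an intron of Abcf1. Their positions are chr7:3220343-3220422 (+) for Mir293, chr7:3220641-3220724 (+) for Mir294, chr3:69009772-69009835 (+) for Mir15b, chr3:69009902-69009996 (+) for Mir16-2, chr7:3219482-3219560 (+) for Mir291b and chr17:35960730-35960814 (-) for Mir877.
Mir293: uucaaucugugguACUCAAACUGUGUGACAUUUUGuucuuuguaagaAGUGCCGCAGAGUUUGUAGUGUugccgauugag
Mir294: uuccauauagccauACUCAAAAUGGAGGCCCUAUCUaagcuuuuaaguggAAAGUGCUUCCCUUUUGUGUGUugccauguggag
Mir15b: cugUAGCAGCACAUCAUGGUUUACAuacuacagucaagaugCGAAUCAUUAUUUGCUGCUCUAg
Mir16-2: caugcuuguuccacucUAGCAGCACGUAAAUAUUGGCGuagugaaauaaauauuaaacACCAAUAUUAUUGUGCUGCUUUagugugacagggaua
Mir291b: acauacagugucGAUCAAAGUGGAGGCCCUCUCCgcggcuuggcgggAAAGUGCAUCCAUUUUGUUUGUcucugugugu
Mir877: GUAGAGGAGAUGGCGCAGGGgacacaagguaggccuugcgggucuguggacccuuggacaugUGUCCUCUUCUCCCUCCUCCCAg

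The library totals were 289539 and 408654 counts in Dgcr8_KO, against 2357868 and 1943868 in WT, so the mean WT total was 6.16 times the mean Dgcr8_KO total. All values below are shares of a library's miRNA total, in CPM (counts per 1000000), so they show how the remaining counts were divided and not how much miRNA a cell held. On raw counts every log2 ratio of Dgcr8_KO to WT would be lower by 2.62, and TMM scaling would move it by -0.19. A single count was worth 3.45 and 2.45 CPM in Dgcr8_KO, against 0.424 and 0.514 CPM in WT. The floor of 3 counts over both Dgcr8_KO libraries is 4.30 CPM and covers counting error only. The 10 most abundant entries made up 64.1% ± 0.501 of a Dgcr8_KO library and 60.5% ± 0.0658 of a WT library (SD, n = 2 each). No entry measures the Dgcr8 mRNA itself. The miR-1306 hairpin, which lies in that mRNA, gave miR-1306-5p 0 and 1 counts in Dgcr8_KO, against 43 and 40 in WT.

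Among 568 entries with enough counts to test, 203 (35.7%) took a higher share in Dgcr8_KO and 271 (47.7%) a lower share, at an edgeR adjusted p under 0.05. Because 83.5% of all tested entries were called, a call alone sets no entry apart. Testing asked for at least 8.50 CPM in 2 of the 4 libraries, a minimum that 321 entries reached in both groups, 106 only in Dgcr8_KO, 139 only in WT and 2 in 1 library of each. An entry that passed through 1 group alone had little room to differ in the other direction, so counts of members called are given below as descriptions, with the number that passed in this way. When the counts were left unscaled, 71 entries were higher and 412 lower. To ask which hairpins persisted, the entries of each hairpin were summed, and the Dgcr8_KO mean was written as a percent of the WT mean for the 239 hairpins with at least 50 CPM in WT, called here the percent kept. Of these, 10 hairpins had no count in either Dgcr8_KO library. A further 47 kept under 10%, 66 kept 10 to 50%, 70 kept 50 to 200% and 46 more than 200%, with a median of 46.5%. The Dgcr8_KO libraries put 32 of the 239 hairpins in different classes, and 4 of those in classes that are not neighbours.

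**Figure D1:**
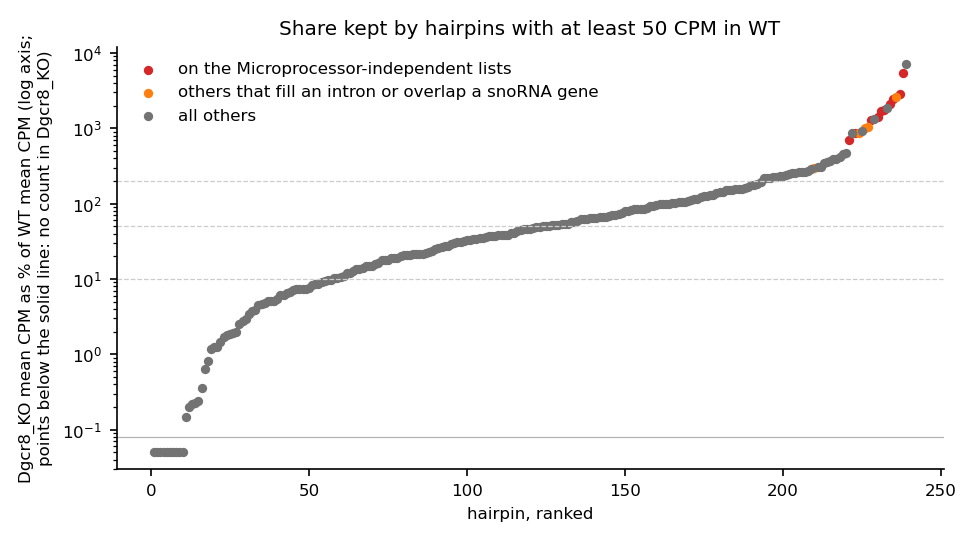
Percent kept (Dgcr8_KO mean CPM over WT mean CPM, log axis) for the 239 hairpins with at least 50 CPM in WT, in rank order. Dashed lines mark 10, 50 and 200%, points under the solid line had no count in Dgcr8_KO, and the 10 hairpins on the Microprocessor-independent lists (red) all lie above 700%; relative to raw counts every point would sit 6.16 times lower.

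The hairpins with no count were miR-134, miR-1193 and miR-1197 of the Mirg transcript, miR-15a, miR-15b, miR-18b, miR-374b, miR-465b, miR-470 and miR-3078. Several of them were not rare in WT. miR-134-5p had 0 counts in both Dgcr8_KO libraries, against 1930 and 1692 in WT, a share at least 196-fold lower (edgeR adjusted p = 2.09e-09). miR-18b-5p had 0 in both, against 1451 and 1459, at least 157-fold lower (edgeR adjusted p = 5.43e-09). miR-15b-5p had 0 in both, against 1241 and 996, at least 121-fold lower (edgeR adjusted p = 7.52e-09). The groups did not overlap for any of these entries, and the zero was found in both Dgcr8_KO libraries. Just above them stood miR-181d-5p, with 0 and 3 counts in Dgcr8_KO against 5990 and 4860 in WT, and miR-421-3p, with 1 and 0 against 1693 and 1357. miR-425-5p, cut from the same transcript as miR-191, had 0 and 0 counts in Dgcr8_KO against 1149 and 1047 in WT. Its neighbour miR-191-5p kept 5671 and 5347 CPM in Dgcr8_KO, against 15401 and 15286 CPM in WT (log2 ratio -1.48, SE 0.11, edgeR adjusted p = 6.52e-08).

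At the other end were entries reported to need no Microprocessor. The counts of higher entries that follow stand beside 35.7% of all tested entries. Of 8 conserved mirtron entries 7 were tested, of which 7 took a higher share in Dgcr8_KO and 2 passed only through Dgcr8_KO. Of 5 entries from capped hairpins 3 were tested and higher, 1 of them passing only through Dgcr8_KO. The 5 snoRNA-derived and 4 tRNA or rRNA fragment entries were also higher, of which 3 and 1 passed in that way. In the Dicer_KO libraries of the series the fragment list held 16.2% and 21.5% and the snoRNA-derived list 0.276% and 0.328%. The mirtrons held 0.00442% and 0.00801% there, and the capped hairpins 0.0265% and 0.0400%. Whether the fragments are products of Dicer was not tested. Over all members, tested or not, the direction can be read from summed counts: the mirtrons and capped hairpins together had 9819 and 13115 counts in Dgcr8_KO, against 4325 and 4168 in WT, 2.70 times as many despite the smaller totals. As shares they made up 3.30% in Dgcr8_KO and 0.199% in WT, 16.6-fold more. miR-877-5p, the mirtron of Abcf1, had 4642 and 4769 CPM in Dgcr8_KO, against 215 and 271 CPM in WT (log2 ratio 4.28, SE 0.17, edgeR adjusted p = 3.05e-10). The capped hairpin miR-484 had 16281 and 14915 CPM in Dgcr8_KO, against 1031 and 1196 CPM in WT (3.81, SE 0.13, edgeR adjusted p = 9.48e-11). miR-320-3p, also from a capped hairpin, had 8945 and 8533 CPM in Dgcr8_KO, against 322 and 380 CPM in WT (4.64, SE 0.15, edgeR adjusted p = 5.22e-11). For each the lowest Dgcr8_KO library stood more than 10 times above the highest WT library. Scaled on the mirtrons and capped hairpins as if their level were equal, 13 entries would be called higher and 453 lower.

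The genome position of the hairpins put further entries beside the listed ones. Mirtrons and snoRNA-derived hairpins are themselves defined by such positions, so position is no separate check of the lists. The sums below include list members. The 44 entries whose hairpin ends lie within 10 nt of the ends of an annotated intron together had 11377 and 11286 CPM in Dgcr8_KO, against 992 and 1239 CPM in WT. Of these 13 had no count in the 4 libraries and 16 had counts too low to test. The other 15 were tested and higher in Dgcr8_KO, beside 35.7% of all tested entries, and 7 of the 15 are on the lists. Of the 15, 8 passed only through Dgcr8_KO, while 7 also reached the minimum in WT. The 22 entries whose hairpin overlaps a snoRNA gene together had 7142 and 7302 CPM in Dgcr8_KO, against 490 and 473 CPM in WT. Of these 20 were tested and higher, beside the same 35.7%, and 4 of the 20 are on the lists. The minimum was passed only through Dgcr8_KO by 13 and in both groups by 7. miR-7068-3p, which fills an intron of Cherp, had 1112 and 1074 CPM in Dgcr8_KO, against 105 and 148 CPM in WT (3.12, SE 0.20, edgeR adjusted p = 2.5e-08). miR-6944-3p, in Dbn1, had the smallest change of the intron fillers, with 1392 and 1241 CPM against 384 and 505 CPM (1.56, SE 0.18, edgeR adjusted p = 4.55e-06). Among the snoRNA overlaps, miR-3068-3p in Alkbh1 had 1236 and 1378 CPM in Dgcr8_KO, against 46.7 and 55.0 CPM in WT (4.69, SE 0.20, edgeR adjusted p = 4.8e-10). miR-5121 in Rpl13a had 1796 and 1632 CPM, against 170 and 169 CPM (3.34, SE 0.16, edgeR adjusted p = 2.26e-09). In none of these 4 did the groups overlap.

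Other positions held calls in both directions. Of 122 tested entries in an intron of a protein-coding gene, 43 took a higher and 59 a lower share in Dgcr8_KO, and of 52 in an exon of one, 18 and 29, beside 35.7% higher and 47.7% lower of all tested entries. Of the 122, 35 passed only through Dgcr8_KO and 31 only through WT, and of the 52, 13 and 15. The 87 intronic entries that passed in WT had 9 higher and 59 lower, and the 91 that passed in Dgcr8_KO had 43 and 33. For exonic entries these were 6 and 29 of 39, and 18 and 14 of 37. Of all 460 tested entries that passed in WT, 101 were higher and 271 lower, and of the 427 that passed in Dgcr8_KO, 203 and 146. In noncoding hosts 5 of 21 intronic entries were higher and 14 lower, and 11 of 53 exonic entries higher and 31 lower. Of the 21, 2 passed only through Dgcr8_KO and 8 only through WT, and of the 53, 4 and 15. Hairpins in coding introns kept a median of 35.1%, and those placed in no annotated gene 25.1%. The latter include hairpins of the Mirg and Meg3 transcripts, such as miR-1193 and miR-540, to which the annotation gives no host. The medians were 30.1% in coding exons, 7.24% in noncoding introns, 35.1% in noncoding exons and 131% antisense to a gene. A few strongly enriched entries are on no list: miR-5126, antisense to Dner, had 46798 and 43516 CPM in Dgcr8_KO, against 1194 and 73.1 CPM in WT, where the replicates differed widely (log2 ratio 6.15, SE 0.89, edgeR adjusted p = 4.21e-05). The ratio of miR-5126 was 9.27 without WT replicate 1 and 5.24 without WT replicate 2. miR-5099 had 27368 and 28303 CPM in Dgcr8_KO against 1613 and 2516 CPM in WT, and miR-3963 had 24007 and 23210 CPM against 3211 and 1920 CPM.

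**Figure D2:**
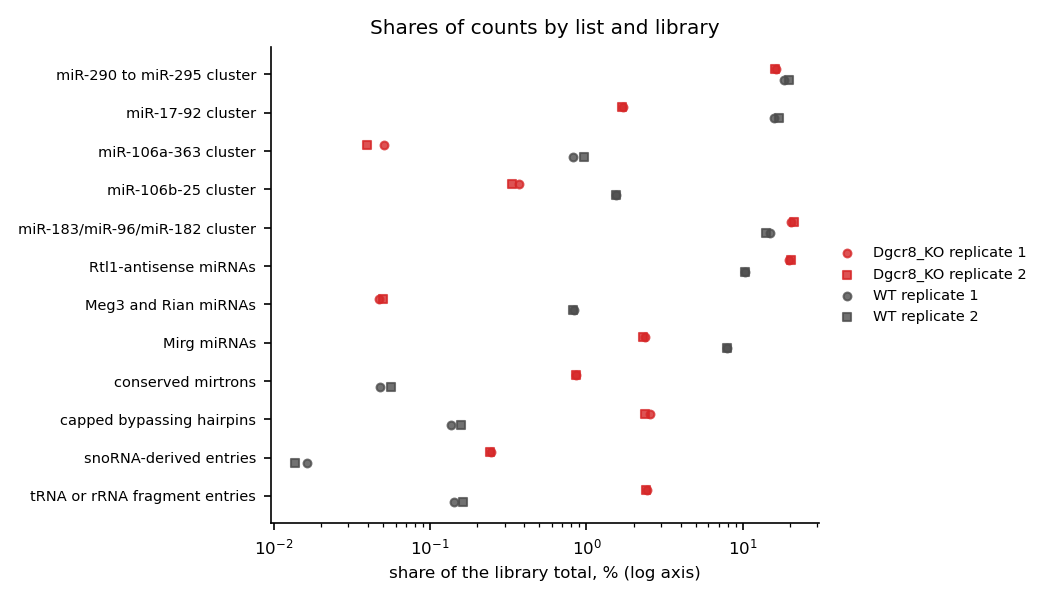
Share of the library total (percent, log axis) for 12 lists, with Dgcr8_KO libraries in red above WT libraries in grey. The 4 Microprocessor-independent lists at the bottom lie at 0.241% to 2.54% in Dgcr8_KO and at 0.0137% to 0.162% in WT, while the miR-17-92, miR-106a-363, miR-106b-25, Meg3 and Rian, and Mirg lists lie lower in Dgcr8_KO.

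The embryonic stem cell cluster, miR-290 to miR-295, kept most of its share. It held 16.4% and 16.0% of the counts in Dgcr8_KO, against 18.5% and 19.8% in WT, while 7 of its 14 tested entries took a higher share and 7 a lower one, beside 35.7% and 47.7% of all tested entries. Of the 14, 1 passed the minimum only through WT. miR-294-3p, 1 of the main stem cell miRNAs, had 21772 and 22672 CPM in Dgcr8_KO, against 11797 and 13139 CPM in WT (log2 ratio 0.83, SE 0.10, edgeR adjusted p = 7.05e-06). miR-295-3p, the next hairpin downstream, had 61584 and 58680 CPM in Dgcr8_KO, against 98301 and 104755 CPM in WT (-0.76, SE 0.07, edgeR adjusted p = 6.6e-07). miR-293-3p, the hairpin just upstream of miR-294, had 124 and 144 CPM in Dgcr8_KO, against 9743 and 10455 CPM in WT (-6.22, SE 0.16, edgeR adjusted p = 9.22e-12). The groups were apart for all of them, so hairpins printed above that lie next to each other on 1 transcript moved in opposite directions as shares. Mir293 as a whole kept 1.86%, while miR-290a, the first of the placed hairpins, kept 246%. miR-291a-5p took 35000 and 33742 CPM in Dgcr8_KO, against 11992 and 12890 CPM in WT (1.47, SE 0.09, edgeR adjusted p = 1.66e-08). The fold changes above zero in this cluster were all under 2.62 and would turn negative on raw counts.

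The miR-17-92 list, from transcript Mir17hg, fell as a share, with 1.72% and 1.69% in Dgcr8_KO against 15.8% and 17.0% in WT. Most of it was miR-92a-3p, given below. The 4 hairpins placed only in Mir17hg were miR-17, miR-18a, miR-19a and miR-20a. Together these held 0.345% and 0.315% in Dgcr8_KO, against 0.341% and 0.368% in WT. Of the 12 tested entries of the list 10 were lower, beside 47.7% of all tested entries, and 4 of the 10 passed the minimum only through WT. The 2 higher ones were the arms of miR-17. miR-17-5p had 2856 and 2645 CPM in Dgcr8_KO, against 1557 and 1625 CPM in WT (0.79, SE 0.14, edgeR adjusted p = 0.000171). miR-18a-5p, the next hairpin, had 17.3 and 22.0 CPM in Dgcr8_KO, against 430 and 449 CPM in WT (-4.45, SE 0.28, edgeR adjusted p = 1.79e-08). miR-19a-3p had 1 count in each Dgcr8_KO library, against 800 and 686 counts in WT (-6.87, SE 0.41, edgeR adjusted p = 1.26e-08). miR-20a-5p, which carries the same seed as miR-17-5p and differs from it in few bases, had 197 and 159 CPM in Dgcr8_KO, against 764 and 864 CPM in WT (-2.20, SE 0.20, edgeR adjusted p = 4.91e-07). miR-92a-3p, the most abundant entry in WT, which a hairpin of the miR-106a-363 cluster also makes, had 13166 and 13363 CPM in Dgcr8_KO, against 150940 and 161093 CPM in WT (-3.56, SE 0.07, edgeR adjusted p = 2.38e-12). None of the groups overlapped. miR-17 kept 175% and miR-19a 0.819%, the widest gap of the cluster.

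The paralogous clusters also held a smaller share in Dgcr8_KO. The 7 tested of 8 entries of miR-106a-363 were lower, beside 47.7% of all tested entries, and 3 of the 7 passed only through WT. This list held 0.0508% and 0.0396% in Dgcr8_KO against 0.825% and 0.959% in WT. Its miR-363-3p had 4 and 5 counts in Dgcr8_KO, against 12068 and 11836 in WT (log2 ratio -8.75, SE 0.23, edgeR adjusted p = 9.22e-12), while miR-20b kept 26.8%, the most in the cluster. The 6 entries of miR-106b-25, which lies in Mcm7, were lower, again beside 47.7% of all tested entries, and 1 of the 6 passed only through WT. There miR-25-3p had 401 and 384 CPM in Dgcr8_KO against 10236 and 10048 CPM in WT, and miR-93-5p had 2608 and 2388 CPM against 3876 and 3871 CPM, a call lost in the fit of all 5 groups (edgeR adjusted p = 0.0592). As whole hairpins miR-25 kept 3.86% and miR-93 63.5% of their share from the same host gene.

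**Figure D3:**
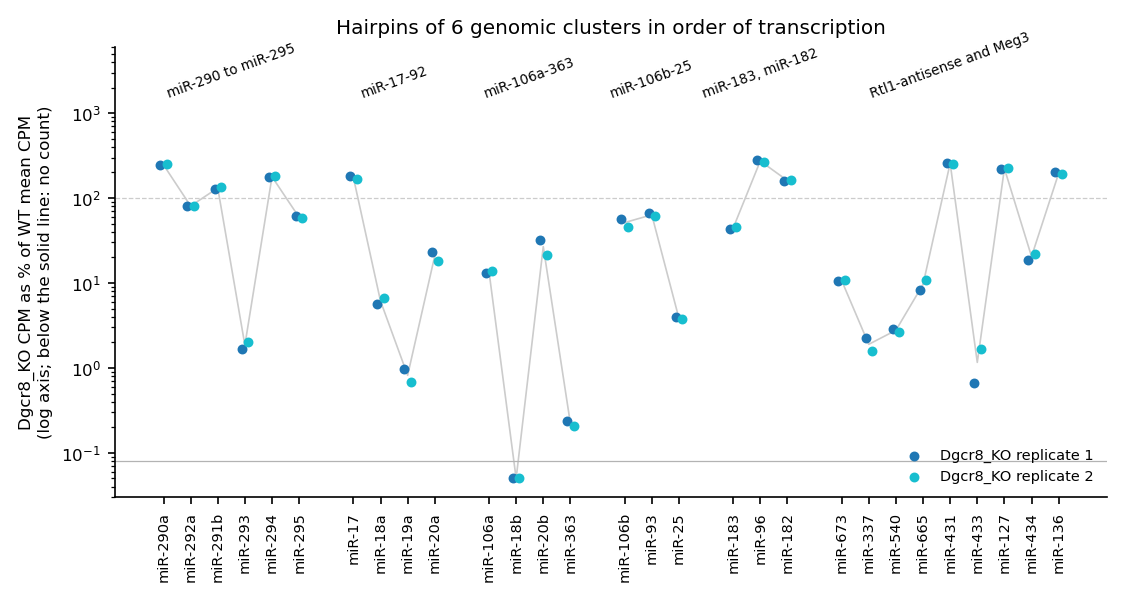
Percent kept in each Dgcr8_KO library (log axis, relative to the WT mean) for hairpins of 6 genomic clusters, in order of transcription within each cluster; points under the solid line had no count. Among neighbours with counts the widest gap is 221-fold, between miR-433 (1.16%) and miR-431 (257%), while both libraries put miR-433 far below miR-431.

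The imprinted Dlk1-Dio3 region on chromosome 12 carries its miRNAs in maternal noncoding transcripts: Rtl1 antisense, Meg3 and Rian, and Mirg. The Rtl1-antisense list held 19.8% and 20.3% of the counts in Dgcr8_KO, against 10.3% in each WT library, with 6 of 10 tested entries higher and 4 lower, beside 35.7% and 47.7% of all tested entries. Of the 10, 2 passed the minimum only through WT. Most of the share of this list was miR-127-3p, which had 176394 and 181594 CPM in Dgcr8_KO, against 81585 and 79577 CPM in WT (log2 ratio 1.15, SE 0.06, edgeR adjusted p = 3.77e-09). miR-431-5p had 10648 and 10138 CPM in Dgcr8_KO, against 3782 and 4065 CPM in WT (1.41, SE 0.12, edgeR adjusted p = 2.41e-07). Both calls were lost when all 5 groups of the series shared 1 estimate of the spread, with edgeR adjusted p = 0.41 for miR-127-3p and 0.174 for miR-431-5p. Between them lies miR-433-3p, which had 2 and 7 counts in Dgcr8_KO, against 2260 and 1995 in WT (-6.27, SE 0.30, edgeR adjusted p = 1.81e-09). Its log2 ratio was -7.15 without Dgcr8_KO replicate 2 and -5.85 without Dgcr8_KO replicate 1. miR-434-3p had 2345 and 2770 CPM in Dgcr8_KO, against 11187 and 12458 CPM in WT (-2.21, SE 0.13, edgeR adjusted p = 1.09e-08). On raw counts the Rtl1-antisense list as a whole would also be lower in Dgcr8_KO.

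The 18 entries of Meg3 and Rian together held 0.0470% and 0.0499% in Dgcr8_KO, against 0.826% and 0.814% in WT. The 15 tested were lower, beside 47.7% of all tested entries. Of the 15, 9 passed the minimum only through WT and 6 in both groups. miR-540-3p had 44.9 and 44.0 CPM in Dgcr8_KO against 1747 and 1519 CPM in WT, and miR-341-3p had 152 CPM in each Dgcr8_KO library against 2862 and 3221 CPM in WT. Of 57 tested Mirg entries 47 were lower and 4 higher, beside 47.7% and 35.7% of all tested entries. Of the 57, 25 passed only through WT, and the list kept 29.4% of its share. The genomic cluster that holds Mirg had 32 hairpins of at least 50 CPM placed only there, which spread over every class. Of these 3 had no count, 11 kept under 10%, 12 kept 10 to 50%, 4 kept 50 to 200% and 2 more. The hairpin miR-666 is not among the 32, and had 3.45 and 0 CPM in Dgcr8_KO against 1018 and 720 CPM in WT. Of the 32, miR-668 kept most, and miR-668-3p had 408 and 379 CPM in Dgcr8_KO against 101 and 126 CPM in WT (log2 ratio 1.79, SE 0.21, edgeR adjusted p = 6e-06). miR-410-3p had 5768 and 5868 CPM in Dgcr8_KO against 10596 and 10857 CPM in WT (-0.88, SE 0.11, edgeR adjusted p = 9.75e-06), a call lost in the fit of all 5 groups (edgeR adjusted p = 0.449). The groups were apart for miR-540-3p, miR-341-3p, miR-668-3p and miR-410-3p.

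The cluster of miR-183, miR-96 and miR-182, which is transcribed as 1 unit, held 20.4% and 21.2% of the counts in Dgcr8_KO, against 14.8% and 14.1% in WT, with 3 of 6 tested entries higher and 2 lower, beside 35.7% and 47.7% of all tested entries. miR-182-5p, the most abundant entry in Dgcr8_KO, had 193345 and 201596 CPM there, against 125617 and 120284 CPM in WT (log2 ratio 0.68, SE 0.06, edgeR adjusted p = 3.36e-07). miR-96-5p had 1036 and 1001 CPM in Dgcr8_KO, against 371 and 357 CPM in WT (1.48, SE 0.16, edgeR adjusted p = 3.03e-06). miR-183-5p had 8980 and 9536 CPM in Dgcr8_KO, against 21716 and 19682 CPM in WT (-1.16, SE 0.10, edgeR adjusted p = 4.59e-07). The first 2 therefore took more of the counts and the last took less, and on raw counts all of them were lower.

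Other host genes gave the same picture. In Ttll10, miR-200b kept 7.34%, miR-200a 27.1% and miR-429 84.2%. In Spaca6, let-7e kept 1.47% and miR-125a 64.2%. In the gene 2610318N02Rik, miR-130b kept 0.36% and miR-301b 65.6%; the miR-130b hairpin had 3 and 6 counts in Dgcr8_KO against 7833 and 7010 in WT. In the Smc4 intron, Mir15b had no count, and the 3p arm of the Mir16-2 hairpin printed beside it, miR-16-2-3p, had 3 and 5 counts in Dgcr8_KO against 43 and 35 in WT, a difference that was not called (log2 ratio -0.66, SE 0.53, edgeR adjusted p = 0.258). Over the 591 pairs of hairpins that share 1 of 21 genomic clusters (within 10 kb on 1 strand), the log2 percent kept differed by a median of 2.48, and 60.2% of the pairs differed by more than 4-fold. Mirg supplies most of these pairs.

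Entries with the same seed also often kept different shares. Unrelated pairs were not compared, so whether a shared seed or cluster brings shares closer was not tested. With the AUUGCAC seed, miR-92b-3p had 6134 and 6020 CPM in Dgcr8_KO, against 5403 and 6078 CPM in WT, groups that overlapped (log2 ratio 0.08, SE 0.12, edgeR adjusted p = 0.525). Its seed mates miR-92a-3p, miR-25-3p, miR-363-3p and miR-32-5p were lower, so the seed as a whole kept 11.1%. The call of miR-32-5p was lost in 4 of the alternative fits, with an edgeR adjusted p of up to 0.104. With the AGCAGCA seed, miR-497a-5p had 487 and 458 CPM in Dgcr8_KO, against 307 and 323 CPM in WT (0.58, SE 0.18, edgeR adjusted p = 0.00843), a call lost when all 5 groups shared the fit (edgeR adjusted p = 0.0848) and when Drosha_KO was left out of that fit (0.0821). Its genomic neighbour miR-195a-5p had 10.4 and 12.2 CPM in Dgcr8_KO, against 175 and 165 CPM in WT (-3.88, SE 0.37, edgeR adjusted p = 9.8e-07). miR-16-5p, made by both the Mir16-1 and Mir16-2 hairpins, had 21248 and 20289 CPM in Dgcr8_KO against 25557 and 23631 CPM in WT, so this seed kept 82.3% although miR-15a and miR-15b had no count. The call of miR-16-5p (-0.24, SE 0.09, edgeR adjusted p = 0.0249) was lost in 8 of the alternative fits, with an adjusted p of up to 0.423.

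Among miR-30 members, miR-30a-5p had 19559 and 20550 CPM in Dgcr8_KO, against 9134 and 7597 CPM in WT (log2 ratio 1.26, SE 0.11, edgeR adjusted p = 5.27e-07). miR-30c-5p was lower (-1.13, SE 0.13, edgeR adjusted p = 4.14e-06), and so was miR-30e-5p, with 1651 and 1945 CPM against 7959 and 7966 CPM (-2.15, SE 0.13, edgeR adjusted p = 1.64e-08). The seed as a whole kept 111%. miR-301a-3p had 2383 and 2503 CPM in Dgcr8_KO, against 2436 and 2380 CPM in WT, and did not differ beyond the replicates (0.02, SE 0.13, edgeR adjusted p = 0.883). miR-130b-3p, with the same seed, had 3 and 6 counts in Dgcr8_KO, against 6987 and 6221 in WT (-7.89, SE 0.24, edgeR adjusted p = 2.73e-11). miR-181c-5p had 2673 and 2775 CPM in Dgcr8_KO, against 5467 and 5067 CPM in WT (-0.95, SE 0.13, edgeR adjusted p = 1.85e-05), while miR-181d-5p, described above, all but vanished. Of the 4 tested entries with this seed 3 were lower and 1 higher. The higher 1 was miR-181a-5p, which kept 552% (log2 ratio 2.42, edgeR adjusted p = 0.000118). The seed as a whole kept 36.1%. Over 90 pairs of entries from different hairpins with 1 of 29 seeds, the log2 ratio differed by a median of 2.27, and 52.2% of the pairs differed by more than 4-fold.

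**Figure D4:**
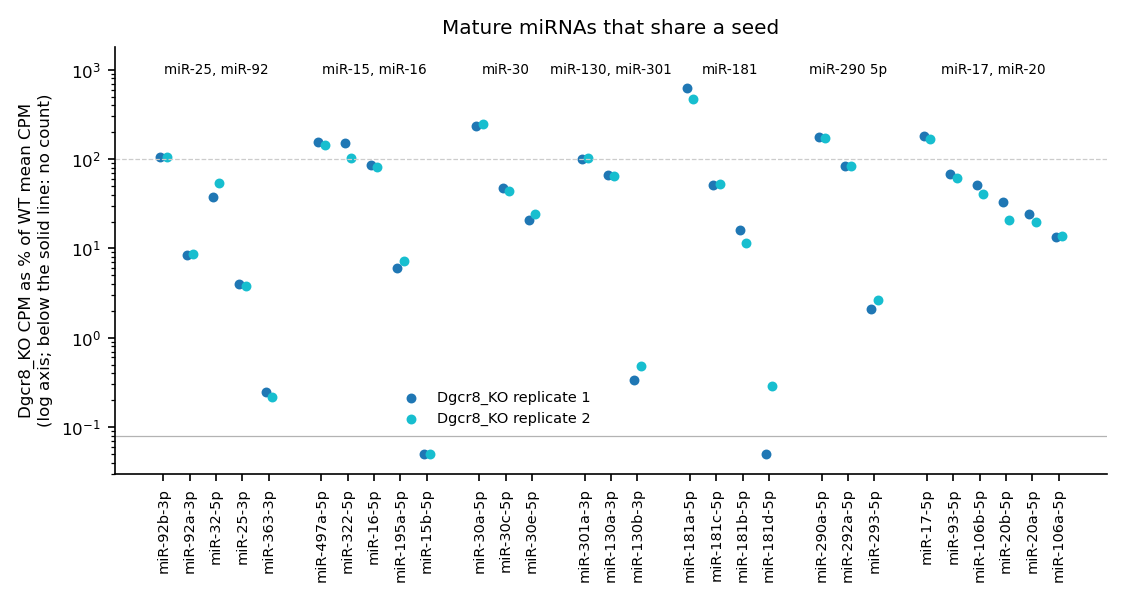
CPM in each Dgcr8_KO library as a percent of the WT mean (log axis) for mature miRNAs grouped by identical seed; points under the solid line had no count. Within each seed the members spread over at least 1 order of magnitude, from miR-92b-3p (106%) down to miR-363-3p (0.232%) in the first group, and miR-181d-5p had 0 and 3 counts in the 2 libraries.

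The 2 arms of a hairpin mostly moved together. For the 69 hairpins with at least 50 CPM in WT in each arm, the log2 ratio of Dgcr8_KO to WT (with 1 CPM added) differed between arms by a median of 0.57, and 3 hairpins (4.35%) differed by more than 4-fold. The ratios of the 5p and 3p arms had a Pearson r of 0.929 across these 69 hairpins, a description of points that share libraries and depth. The Dgcr8_KO libraries themselves differed by a median of 0.16 over the 239 hairpins, and by more than 4-fold for 13 of them (5.44%). Of 114 hairpins whose arm balance was tested with limma, 3 (2.63%) were called, and for miR-15b and miR-18b both arms had 0 counts in Dgcr8_KO, so their balance there was set by the pseudocount. With at least 20 counts per arm in each group, 13 of 55 hairpins (23.6%) were called, 8 toward the 5p and 5 toward the 3p arm, with a median shift of 0.39 over the 55.

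The 3 hairpins whose arms differed by more than 4-fold were miR-291b, printed above, miR-15b and miR-27a. For miR-15b, with 0 counts in both arms in Dgcr8_KO, the difference came only from the WT arms and the 1 CPM added. miR-291b-5p had 248 and 375 counts in Dgcr8_KO, against 1221 and 1070 in WT (log2 ratio 0.73, SE 0.16, edgeR adjusted p = 0.000963). miR-291b-3p had 2 counts in each Dgcr8_KO library, against 325 and 298 in WT (-4.64, SE 0.44, edgeR adjusted p = 9.47e-07). Its arm balance moved toward the 5p arm by 5.06 on the log2 scale (SE 0.27, limma adjusted p = 0.013). This call was lost with the replicate block (limma adjusted p = 0.0652), without WT replicate 1 (0.3332) and without WT replicate 2 (0.344), with shifts of 5.06, 5.09 and 5.03, and with 4 counts of its 3p arm in Dgcr8_KO the hairpin was not among the 55. miR-291b-5p shares its seed with miR-291a-5p, which had 10134 and 13789 counts in Dgcr8_KO, and how reads that match both were assigned is not given in the sources used here. miR-27a-5p had 0 and 1 counts in Dgcr8_KO, against 128 and 136 in WT, and miR-27a-3p had 62 and 73 in Dgcr8_KO, against 2263 and 1914 in WT. The arm balance of miR-27a was not called (shift -2.32, SE 0.57, limma adjusted p = 0.116), although it was without Dgcr8_KO replicate 1 (limma adjusted p = 0.041) or replicate 2 (0.0231).

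**Figure D5:**
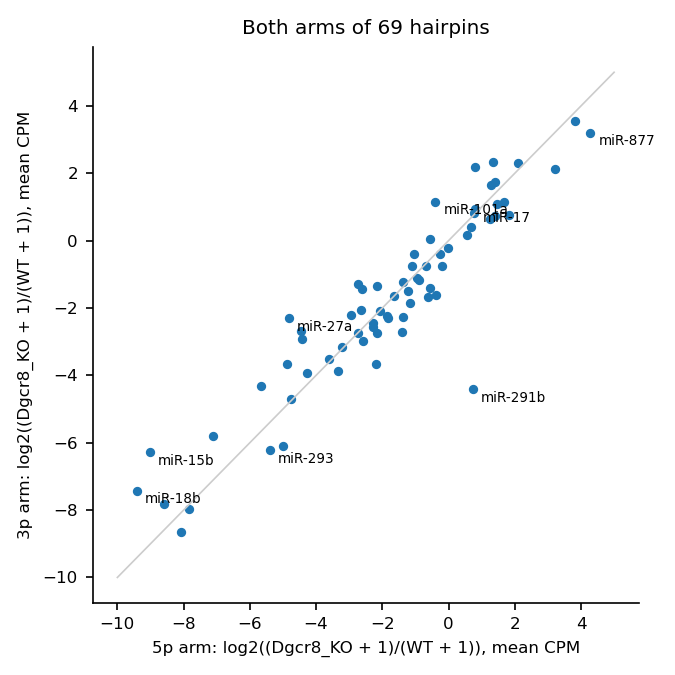
Log2 ratio of Dgcr8_KO to WT mean CPM (1 CPM added to each) for the 5p arm (horizontal) and the 3p arm (vertical) of 69 hairpins; the line marks equal ratios. Most hairpins lie near the line (median distance 0.57), and miR-291b lies far below it.

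Properties of the hairpin sequence were described for 164 hairpins with 1 locus that are on none of the Microprocessor-independent lists. The letters UGU, a loop motif known in the hairpins that Dgcr8 binds, stood between the mature arms (sense strand only) in 36.9% of the 141 hairpins with both arms annotated. By class this was 1 of 7 hairpins with no count, 38.7% of those that kept under 10%, 36.96% at 10 to 50%, 35.1% at 50 to 200% and 45.0% above 200%. The folding energy of the annotated hairpin per base, from RNAfold, had a median of -0.374 kcal/mol for hairpins with no count, -0.420 under 10%, -0.440 at 10 to 50%, -0.450 at 50 to 200% and -0.472 above 200%. The medians thus ran in the order of the classes, toward more negative energy per base where more was kept, and no test was made of this order. The energy is that of the whole annotated hairpin, loop and flanks included, and not of the stem alone. Single hairpins ran from -0.668 (miR-299a) to -0.224 (miR-677). The class above 200% includes hairpins off the lists that fill an intron or overlap a snoRNA gene, such as miR-7068 and miR-3068.

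Markers of other cell types were read as miRNA lists. The fibroblast or feeder list held 0.384% and 0.367% in Dgcr8_KO, against 0.438% and 0.338% in WT. Of its 8 tested entries 2 were higher and 2 lower, beside 35.7% and 47.7% of all tested entries, and 2 of the 8 passed only through WT. In this list miR-143-3p had 2842 and 2795 CPM in Dgcr8_KO against 3287 and 2414 CPM in WT. miR-10a-5p took a higher share (log2 ratio 1.95, edgeR adjusted p = 1.52e-06). The miR-196a hairpin had 34.5 and 58.7 CPM in Dgcr8_KO against 660 and 597 CPM in WT. The blood list held 0.481% and 0.477% in Dgcr8_KO, against 0.182% and 0.142% in WT, with 2 of 4 tested entries higher and 1 lower, beside 35.7% and 47.7% of all tested entries. The lower 1 was miR-150-5p, with 608 and 472 CPM in Dgcr8_KO against 1078 and 1054 CPM in WT (log2 ratio -0.99, SE 0.17, edgeR adjusted p = 0.000175). Most of the blood share was miR-142a-5p, with 3796 and 3940 CPM in Dgcr8_KO against 579 and 250 CPM in WT (log2 ratio 3.22, SE 0.30, edgeR adjusted p = 7.83e-07). Its log2 ratio was 3.95 without WT replicate 1 and 2.74 without WT replicate 2. By contrast, miR-451a had 2 and 0 counts in Dgcr8_KO against 4 and 5 in WT, and miR-223-3p 1 and 0 against 0 and 0. The neural list held 0.173% and 0.153% in Dgcr8_KO, against 0.314% and 0.344% in WT, and the endoderm list 0.0190% and 0.0223% against 0.161% and 0.156%. Of the muscle list 1 entry had counts, 2 and 4 in Dgcr8_KO against 20 and 16 in WT, while miR-1a-3p had no count in any of the 4 libraries. As shares the muscle list held 0.000691% and 0.000979% in Dgcr8_KO, against 0.000848% and 0.000823% in WT. The part of other cells in these results was not tested.

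Of 233 entries with at least 50 counts over both Dgcr8_KO libraries, 4 differed by more than 2-fold in CPM between them. let-7f-5p had 1806 and 269 CPM in Dgcr8_KO, against 958 and 1053 CPM in WT. let-7a-5p had 684 and 71.0 CPM, against 236 and 282 CPM. For both the WT values lay between the Dgcr8_KO replicates, and neither was called (edgeR adjusted p = 0.96 and 0.445). By comparison let-7g-5p, from an intron of Wdr82, had 518 and 600 CPM in Dgcr8_KO against 174 and 182 CPM in WT (log2 ratio 1.65, SE 0.19, edgeR adjusted p = 4.34e-06). The other entries that differed between the libraries were miR-411-5p, with 328 and 153 counts in Dgcr8_KO against 35476 and 27946 in WT, and miR-6948-3p.

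The Drosha_KO libraries, which lack the other subunit of the Microprocessor, are set beside these values without a test, because both mutants share the WT libraries and the Drosha_KO totals were only 39511 and 40306 counts. Mir293 had 2379 and 1836 CPM in Drosha_KO, 349 and 426 CPM in Dgcr8_KO, and 20058 and 21592 CPM in WT. miR-17 had 2708 and 2605 CPM in Drosha_KO, 3209 and 2956 CPM in Dgcr8_KO, and 1719 and 1809 CPM in WT. miR-15b, miR-18b and miR-134 had no count in either mutant, where 1 count was worth 25.3 and 24.8 CPM in Drosha_KO. miR-431 had 0 and 4019 CPM in the Drosha_KO libraries, which parted over this region, 11187 and 10821 CPM in Dgcr8_KO, and 4174 and 4402 CPM in WT.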

How the data were processed

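Counts of reads per mature miRNA, as deposited by the authors for 10 libraries, were whole numbers with no normalization. The submitters' processing notes name Bowtie and mm10. The sources used here do not give versions, a counting program, the miRBase release or how reads that match several hairpins were handled.

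The quasi-likelihood test of edgeR 4.0.16 in R 4.3.3 was run on the 2 Dgcr8_KO and 2 WT columns, with column totals as library sizes, 2 residual degrees of freedom, filterByExpr (minimum count 10, minimum total 15) and Benjamini-Hochberg adjustment over 568 entries. Totals of 289539 to 2357868 counts set the precision, and a group with no count is bounded at 3 counts. The chi-square between replicates, divided by its degrees of freedom, was 3.88 in Dgcr8_KO and 24.0 in WT, more than counting error, so none was taken for a repeat deposit. Replicate numbers do not pair the groups (correlation of deviations -0.012 over 568 entries). Arm balance was tested with limma 3.58.1 on log2((5p + 0.5)/(3p + 0.5)) where both arms averaged at least 20 counts. Folding energies came from RNAfold 2.7.2.

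Hairpins sum the entries of 1 stem, and copies that share an arm were joined. Of 1907 entries 1528 matched a RefSeq hairpin, and of the 239 hairpins 194 had a locus, 172 of them only 1. Positions are from GENCODE M21 on GRCm38. Shares of 2 against 2 libraries cannot go below an exact two-sided permutation p of 0.333, so they were not tested. The 34 lists, the tests and the naming rule were chosen with earlier results of these data known. The rule took the 10 highest and 10 lowest fold changes among calls with at least 100 CPM and separated replicates, the 10 entries with the highest mean in either group, the 2 most abundant tested entries of each list, and the extremes of each genomic cluster of at least 4 hairpins. It named 104 entries, and 32 more were picked with their values in view. The alternatives comprised other scalings (DESeq2 1.42.0 among them), filters, groups in the fit, minimums, pseudocounts, the replicate block and leaving out each library. The scripts were tested on simulated data.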

Additional observations from a re-analysis of the deposited data

How the results depend on the processing

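The counts of calls depend most on the scale. With counts left unscaled 71 entries were higher and 412 lower in Dgcr8_KO, and scaled on the mirtrons and capped hairpins 13 and 453, because both scales lower every log2 ratio. TMM factors moved the median by -0.19 and left 195 higher and 279 lower. Leaving out each library in turn gave 192 to 206 higher and 239 to 277 lower.

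The number of hairpins with no count became 16 with a WT minimum of 20 CPM and 4 with 200 CPM, because the minimum sets how many hairpins are read. With 200 CPM, 45 kept 50 to 200% and 25 more than 200%. Without 1 library the hairpins with no count ran from 9 to 16, with 16 without Dgcr8_KO replicate 1.

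Replicate numbers share only a number. With the replicate block 200 entries were higher and 260 lower, and limma called 0 hairpins for arm balance, with 17 of 114 at an unadjusted p under 0.05. Arm balance was the least stable result: 25 hairpins were called with a pseudocount of 2, 15 with a mean of 100 counts per arm, 13 with 20 counts per arm in each group, and 0 to 27 when 1 library was left out (0 without either WT library, with 14 of 114 at an unadjusted p under 0.05 in each case). Fits without 1 library take the spread of the remaining sample from the other group.

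Under TMM factors the share kept was 74.2% for miR-290 to miR-295, 9.12% for miR-17-92, 19.9% for miR-106b-25, 126% for the cluster of miR-183, miR-96 and miR-182, 170% for the Rtl1-antisense list, 5.19% for Meg3 and Rian, 25.8% for Mirg, 1436% for mirtrons, 1461% for capped hairpins, 1419% for snoRNA-derived entries and 1401% for tRNA or rRNA fragments. With fragment and snoRNA entries out of the totals, the Rtl1-antisense list kept 199% and Mirg 30.2%.

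Of 1765 values for 136 named entries under 13 alternative settings, which leave out the unscaled, mirtron-scaled and reduced tables, 1695 kept direction and call, 57 lost the call, 10 gained it and 3 turned round. The losses fell on 19 entries, 17 of which lost their call when all 5 groups shared the fit. With counts left unscaled 87 of the 136 kept direction and call, 5 lost the call, 7 gained it and 37 turned round. Scaled on the mirtrons and capped hairpins 78 kept both, 7 lost the call, 7 gained it and 44 turned round. With fragment and snoRNA entries left out, 128 of 132 kept both. The log2 ratio of let-7f-5p became -0.46 with the replicate block and ran from -1.90 to 0.85 when 1 library was left out, and that of let-7a-5p ran from -1.87 to 1.40. Both low values came without Dgcr8_KO replicate 1.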

Other observations

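The repeat family of miR-297, miR-466, miR-467 and miR-669, encoded in many copies in an intron of Sfmbt2, held 1.86% and 1.76% of the counts in Dgcr8_KO, against 1.92% and 1.24% in WT. Of its 47 tested entries 9 took a higher share and 15 a lower one, beside 35.7% and 47.7% of all tested entries. Of the 47, 3 passed the minimum only through Dgcr8_KO and 7 only through WT. miR-467a-5p had 6355 and 5604 CPM in Dgcr8_KO, against 2812 and 1862 CPM in WT (log2 ratio 1.35, SE 0.18, edgeR adjusted p = 1.77e-05), and miR-669a-5p had 3108 and 2672 CPM against 3517 and 2377 CPM, a difference that was not called (edgeR adjusted p = 0.883). In the other direction, the miR-466b hairpin had 839 and 722 CPM in Dgcr8_KO against 4358 and 2954 CPM in WT. The miR-466c hairpin had 300 and 250 CPM against 1523 and 1042 CPM. Entries of this family are near-identical copies among which reads can be split, so their counts are uncertain.

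The clusters of miR-23, miR-27 and miR-24 kept 7.30% of their share, with 6 of 8 tested entries lower and 1 higher, beside 47.7% and 35.7% of all tested entries, and 2 of the 8 passed the filter only through WT. miR-27b-3p had 266 and 303 CPM in Dgcr8_KO, against 14992 and 16720 CPM in WT (log2 ratio -5.80, SE 0.15, edgeR adjusted p = 9.22e-12). miR-24-3p, made from hairpins in both of these clusters, had 591 and 626 CPM in Dgcr8_KO, against 483 and 423 CPM in WT (0.43, SE 0.17, edgeR adjusted p = 0.0346), and its call was lost in 7 of the alternative fits, with an edgeR adjusted p of 0.0545 to 0.244. The family of miR-34 and miR-449 held 0.112% and 0.0898% in Dgcr8_KO against 0.0458% and 0.0403% in WT. In that family miR-34a-5p, known as a target of p53, had 725 and 595 CPM in Dgcr8_KO against 181 and 188 CPM in WT (1.84, SE 0.19, edgeR adjusted p = 1.72e-06).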
